A study of Mus musculus with 24 samples.

Results

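Transcripts of 9 genes that build triglyceride were followed in 24 mouse liver RNA-seq libraries. They are Gpam, Agpat2, Agpat3, Lpin1, Lpin2, Lpin3, Dgat1, Dgat2 and Mogat1, taken by gene symbol from each library's table, with a gene missing from a table counted as 0. These are 9 of the 17537 genes listed in at least 1 library, and all 9 were among the 10697 genes that passed the filter of 1 FPKM (read fragments scaled to transcript length and library size) in at least 6 libraries. The expression filter was met in all 24 libraries by 8 of the members. Mogat1 met it in 12 libraries, all of them from mice given DEHP, so a gene with its pattern could enter the test only through the groups where it was high.

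The livers came from male C57BL/6 mice of 20 to 30 g, dosed by gavage. One group, called the combination here, received 2500 mg/kg di(2-ethylhexyl) phthalate (DEHP) plus ethanol at 1 g/kg, one received DEHP at that dose alone, one ethanol at that dose alone, and one the vehicle, 0.5% CMC. DEHP is a plasticiser and a peroxisome proliferator in rodents. Each group had 6 libraries, while the labels describe 12 mice per group and do not tie a library to an animal, so the p-values measure the spread between libraries, which may in part be technical. The mice's age, the number of doses, the time from dosing to collection and the feeding state are not given in the labels. CMC is named in the titles of the vehicle group alone, and if the other groups lacked it, treatment and carrier cannot be told apart.

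Triglyceride is built by adding fatty acids one at a time to glycerol 3-phosphate. A glycerol-phosphate acyltransferase adds the first, an acylglycerol-phosphate acyltransferase (AGPAT) the second, and a lipin then removes the phosphate from the resulting phosphatidate to give diacylglycerol, to which a diacylglycerol acyltransferase (DGAT) adds the last fatty acid. A monoacylglycerol acyltransferase can also reach diacylglycerol without the lipin step. Lipins have a further role, as lipin 1 enters the nucleus and works with PPARα and PGC-1α on fatty acid oxidation genes. In mouse liver Lpin1 is known to be induced by fasting and glucocorticoids, and Mogat1 to be a target of PPARγ in fatty liver.

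Total expected counts were 7324793 to 8016662 per library. Hepatocyte markers were abundant in every library, with a summed level over 6 genes of 40558 to 72217 FPKM. That sum was 41471 to 46901 FPKM with the combination and 40558 to 48500 FPKM with DEHP, below the 59171 to 72217 FPKM with ethanol and the 51161 to 70954 FPKM with vehicle. The markers did not move as one: median Alb, the most abundant of them, was 21938 FPKM with the combination, 24104 FPKM with DEHP, 30874 FPKM with ethanol and 37810 FPKM with vehicle, whereas median Cyp2e1 was 3722 FPKM with the combination, 3945 FPKM with DEHP, 3614 FPKM with ethanol and 2771 FPKM with vehicle. In bulk tissue, fewer cells of a type and less RNA per cell cannot be told apart. Skeletal muscle transcripts, summed over 6 markers, reached 3884 FPKM in combination library 6 and 5143 FPKM in vehicle library 1, against at most 3.77 FPKM elsewhere. DEHP library 6 carried pancreatic transcripts, 455 FPKM over 6 markers, against at most 35.9 FPKM elsewhere. The 3 libraries were kept, and values without them are given where they change the call of a member. For single genes other than the members, calls without them were not compared.

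Promoter sequences are printed for the 3 members on which the results turn, Lpin1, Lpin2 and Mogat1, so that the sequence at a start site of each can be read beside its levels. They run from 250 bases before to 50 bases after a RefSeq transcript start of GRCm38.p6, 5′ to 3′ along the gene, and capitals mark matches to the motifs searched. For Lpin1 the window is chr12:16610917-16611216 on the minus strand, for Lpin2 the first of its windows, chr17:71183282-71183581 on the plus strand, and for Mogat1 chr1:78510810-78511109 on the plus strand. The Lpin2 and Mogat1 windows lie at the 5′ end of the gene. The Lpin1 window lies inside the gene, whose 5′ end on the minus strand is at 16653903, and the start of its longest span was not examined here.
Lpin1: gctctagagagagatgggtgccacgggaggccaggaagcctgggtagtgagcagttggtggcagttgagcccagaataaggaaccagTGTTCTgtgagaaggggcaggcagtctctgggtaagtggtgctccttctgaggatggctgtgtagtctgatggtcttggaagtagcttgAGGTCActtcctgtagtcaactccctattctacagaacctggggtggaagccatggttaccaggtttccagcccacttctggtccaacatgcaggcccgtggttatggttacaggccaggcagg
Lpin2: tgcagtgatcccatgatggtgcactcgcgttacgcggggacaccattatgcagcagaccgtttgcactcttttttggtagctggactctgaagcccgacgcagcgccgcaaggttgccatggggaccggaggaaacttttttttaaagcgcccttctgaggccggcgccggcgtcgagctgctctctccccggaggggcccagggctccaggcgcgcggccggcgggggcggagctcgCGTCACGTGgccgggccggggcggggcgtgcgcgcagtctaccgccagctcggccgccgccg
Mogat1: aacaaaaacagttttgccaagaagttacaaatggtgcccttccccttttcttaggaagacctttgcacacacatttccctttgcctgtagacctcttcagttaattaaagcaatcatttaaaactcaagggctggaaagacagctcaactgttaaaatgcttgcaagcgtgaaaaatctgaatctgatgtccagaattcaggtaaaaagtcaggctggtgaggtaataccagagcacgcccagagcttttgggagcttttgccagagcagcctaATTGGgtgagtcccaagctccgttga

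The motifs were searched on both strands, and a match describes letters, not a bound site. Over 32851 promoters of this length, AGGTCA, a nuclear receptor half-site, occurred in 16.3%, TGTTCT, a glucocorticoid receptor half-site, in 19%, and TGACG, a cyclic AMP response half-site, in 20.8%. CACGTG, an E-box, occurred in 7.15% and CCAAT in 37.4%. The Lpin1 window held TGTTCT at positions -163 to -158 from this internal start and AGGTCA at -74 to -69. The Lpin2 window held CACGTG at -9 to -4, overlapping TGACG on the minus strand at -12 to -8. Of the other Lpin2 windows, the one at chr17:71204404-71204703 held TGTTCT at -203 to -198 and 3 matches to CCAAT, and chr17:71183728-71184027 held none of the motifs. In the Mogat1 window the single match was CCAAT on the minus strand at positions 24 to 28 after the start. An exact direct repeat of AGGTCA with 1 base between, the consensus of the sites a PPAR binds, was in 0.0396% of promoters. It was in none of the 11 windows of the 7 members with an entry. Looser matches were not searched, and an exact repeat this rare cannot tell whether a window holds a PPAR site. Dgat1 and Dgat2 had no entry. GC content was 55.3% for Lpin1, 68.7% for Lpin2 and 43.7% for Mogat1, beside a median of 52.7% over all promoters.

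Across the pathway, Lpin1 and Lpin2 were lowest with ethanol, Mogat1 was raised in both DEHP-containing groups, and Dgat2 was highest with ethanol. Against vehicle, ethanol lowered Lpin1, Lpin2 and Gpam and raised Dgat2. DEHP raised Mogat1, Agpat3 and Dgat1 and lowered Lpin1 and Dgat2. The combination gave those 5 changes in the same directions, with a rise in Gpam and a fall in Lpin2 besides. Changes below are log2 changes from edgeR's quasi-likelihood test ± SE, with p adjusted over all 10697 genes by the Benjamini-Hochberg method and a threshold of 0.05.

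**Figure D1:**
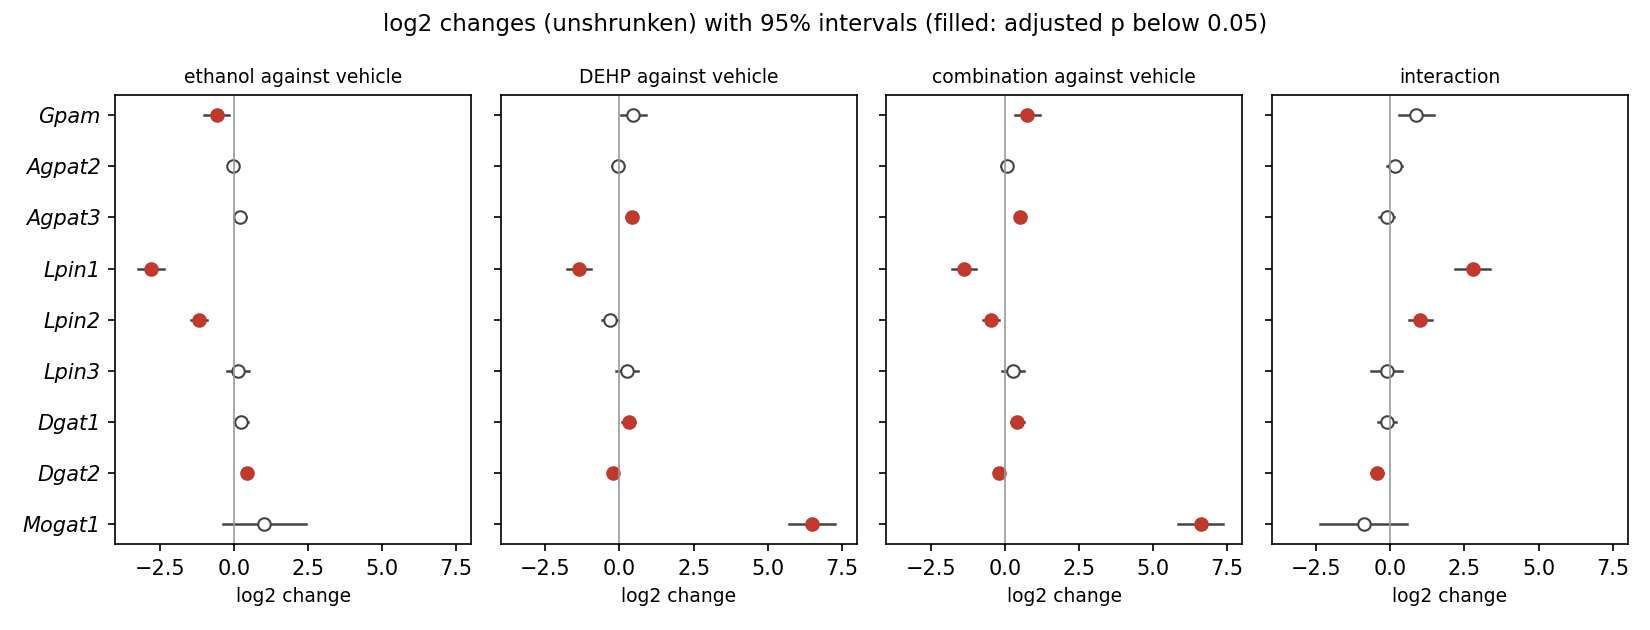
Log2 changes of the 9 members (rows) for ethanol, DEHP and the combination against vehicle, and for the interaction, which is the change of the combination against DEHP minus the change of ethanol against vehicle. Points are unshrunken estimates, lines 95% intervals, and filled points have an adjusted p below 0.05. Lpin1 lies left of 0 in all 3 treatments and right of 0 in the interaction, and Mogat1 lies far right in both DEHP-containing groups.

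Gpam, the mitochondrial glycerol-phosphate acyltransferase that adds the first fatty acid (gene 14732, chromosome 19, 55067635 to 55127319), was highest with the combination. Its lowest, median and highest levels were 55.7, 82.6 and 109 FPKM with the combination and 50.2, 67.9 and 97.2 FPKM with DEHP. They were 23.2, 30.3 and 40.1 FPKM with ethanol and 33.2, 40.0 and 76.8 FPKM with vehicle. All ethanol libraries lay below all libraries of both DEHP-containing groups, while vehicle overlapped each treatment. In vehicle, libraries 2 and 3 stood at 76.8 and 71.3 FPKM and the other 4 between 33.2 and 41.0 FPKM. The combination exceeded vehicle by 0.75 ± 0.21 (adjusted p = 0.00548) and ethanol by 1.34 ± 0.21 (adjusted p = 2.18e-05). DEHP exceeded ethanol by 1.06 ± 0.21 (adjusted p = 3.86e-04). DEHP against vehicle was 0.47 ± 0.20 and did not pass (adjusted p = 0.0908). Ethanol was lower than vehicle, with a change of -0.59 ± 0.21 (adjusted p = 0.0328). That call was lost on leaving out vehicle library 2 or 3 or ethanol library 1, 2, 3 or 5, with changes of -0.68 to -0.42 over all libraries left out in turn. The interaction, defined in the caption of the plot of log2 changes, was 0.87 ± 0.29 and did not pass (adjusted p = 0.0654). It passed without vehicle library 6 (0.97, adjusted p = 0.0433), combination library 4 (0.96, adjusted p = 0.0419) or DEHP library 1 (0.9971, adjusted p = 0.0404).

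Of the AGPATs, which add the second fatty acid, Agpat3 was higher with DEHP and Agpat2 passed no test. Agpat3 (gene 28169, chromosome 10, 78269174 to 78352497), an enzyme also known to acylate lysophospholipids, ranged over 83.4 to 103 FPKM with the combination, median 91.5, and 74.96 to 96.3 FPKM with DEHP, median 89.0. With ethanol it ranged over 65.4 to 78.8 FPKM, median 72.5, and with vehicle over 58.9 to 71.7 FPKM, median 65.4. Neither DEHP-containing group overlapped vehicle. The change was 0.50 ± 0.09 for the combination (adjusted p = 6.25e-05) and 0.41 ± 0.09 for DEHP (adjusted p = 9.56e-04) against vehicle. The combination also exceeded ethanol, by 0.29 ± 0.09 (adjusted p = 0.0131). Ethanol against vehicle, 0.22 ± 0.09, did not pass (adjusted p = 0.0584), nor did DEHP against ethanol, 0.19 ± 0.08 (adjusted p = 0.102), or the interaction, -0.12 ± 0.12 (adjusted p = 0.577).

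Agpat2 (gene 67512, chromosome 2, 26593057 to 26604417), the AGPAT whose loss causes lipodystrophy, averaged 171 ± 10.97 FPKM with the combination and 160 ± 18.3 FPKM with DEHP. It averaged 153 ± 16.6 FPKM with ethanol and 164 ± 11.1 FPKM with vehicle (SD, n = 6 each). Its changes in the 6 comparisons lay between -0.06 and 0.11, and the adjusted p-values between 0.505 and 0.885. Its interaction was 0.15 ± 0.13 (adjusted p = 0.516). On FPKM, Agpat2 was the more abundant AGPAT in all groups, at 1.86 ± 0.15 times the level of Agpat3 with the combination, 1.84 ± 0.24 times with DEHP, 2.14 ± 0.35 times with ethanol and 2.54 ± 0.30 times with vehicle.

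Lpin1, which encodes lipin 1, was the member with the largest change under ethanol. The gene (14245, chromosome 12, 16535669 to 16653903) had lowest, median and highest levels of 19.3, 26.9 and 37.8 FPKM with the combination and 25.2, 27.8 and 32.6 FPKM with DEHP. With ethanol they were 5.93, 10.2 and 14.1 FPKM and with vehicle 52.0, 74.9 and 94.2 FPKM. Levels therefore formed 3 steps that did not overlap, with vehicle at the top, the combination and DEHP together in the middle, and ethanol at the bottom. Group means were 28.02 ± 8.07 FPKM with the combination, 28.4 ± 3.24 FPKM with DEHP, 10.1 ± 3.35 FPKM with ethanol and 72.7 ± 17.1 FPKM with vehicle (SD, n = 6 each).

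Every treatment lowered Lpin1 in 6 of 6 libraries relative to the vehicle mean. Ethanol changed it by -2.79 ± 0.21 (adjusted p = 1.14e-09), ranking 23rd from the lowest of 10697 genes by size and 7th by p. DEHP changed it by -1.37 ± 0.20 (adjusted p = 1.63e-05) and the combination by -1.38 ± 0.20 (adjusted p = 8.83e-06). The DEHP-containing groups stood above ethanol, by 1.41 ± 0.20 for the combination (adjusted p = 9.41e-06) and 1.42 ± 0.21 for DEHP (adjusted p = 1.05e-05). The combination and DEHP were not told apart, with a difference of -0.01 ± 0.20 and a 95% interval of -0.42 to 0.40. The interaction, the change of the combination against DEHP minus that of ethanol against vehicle, was 2.78 ± 0.29 (adjusted p = 1.74e-06), the 34th highest of all genes tested. In the libraries with muscle transcripts Lpin1 stood at 31.3 FPKM in combination library 6 and 53.8 FPKM in vehicle library 1, which was the second lowest of its group. Without the 3 libraries with muscle or pancreatic transcripts the means were 27.4 FPKM with the combination, 27.6 FPKM with DEHP, 10.1 FPKM with ethanol and 76.5 FPKM with vehicle.

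**Figure D2:**
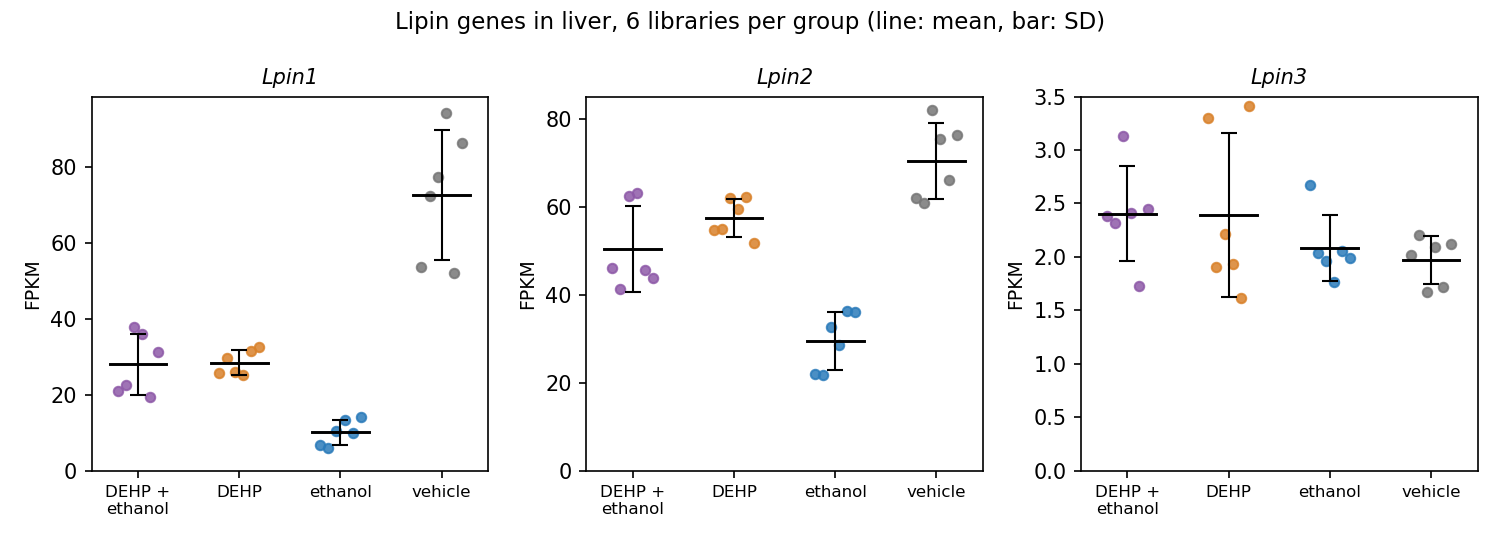
Levels of Lpin1, Lpin2 and Lpin3 in FPKM (y axis, from 0) in 6 libraries of each group (x axis), with each point a library, the line the mean and the bar 1 SD. Lpin1 falls into 3 separate levels, Lpin2 is lowest with ethanol, and Lpin3 overlaps between all groups.

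Lpin2, encoding a lipin known to be abundant in liver (gene 64898, chromosome 17, 71183532 to 71249818), followed the order of Lpin1 over a narrower range. Its lowest, median and highest levels were 41.4, 45.9 and 63.1 FPKM with the combination and 51.8, 57.3 and 62.3 FPKM with DEHP. They were 21.8, 30.6 and 36.2 FPKM with ethanol and 60.9, 70.8 and 82.2 FPKM with vehicle. Ethanol did not overlap any other group, whereas both DEHP-containing groups reached into the vehicle range. Ethanol changed Lpin2 by -1.19 ± 0.13 (adjusted p = 9.95e-07) and the combination by -0.48 ± 0.13 (adjusted p = 0.00609) against vehicle. DEHP against vehicle, -0.31 ± 0.13, did not pass (adjusted p = 0.0859). The combination stood above ethanol by 0.70 ± 0.13 (adjusted p = 2.56e-04) and DEHP above ethanol by 0.88 ± 0.13 (adjusted p = 2.30e-05), and the interaction was 1.02 ± 0.19 (adjusted p = 0.00198). With the trend of change on gene length taken out, an alternative chosen after seeing the data, the combination against vehicle was -0.29 and no longer passed (adjusted p = 0.112).

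Lpin3, a lipin better known from the gut (gene 64899, chromosome 2, 160880670 to 160906000), was weakly expressed and passed no test. Mean levels were 2.40 ± 0.45 FPKM with the combination, 2.39 ± 0.77 FPKM with DEHP, 2.08 ± 0.31 FPKM with ethanol and 1.97 ± 0.22 FPKM with vehicle (SD, n = 6 each). All 4 groups overlapped, and adjusted p-values were 0.252 to 0.983 in the 6 comparisons. The interaction was -0.12 ± 0.26 (adjusted p = 0.820).

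Summed over the 3 lipins, which FPKM allows since it is per transcript length, the level was 80.9 ± 17.3 FPKM with the combination, 88.4 ± 4.04 FPKM with DEHP, 41.7 ± 9.17 FPKM with ethanol and 145 ± 23.8 FPKM with vehicle (SD, n = 6 each). All ethanol libraries, at 29.7 to 52.1 FPKM, lay below all others, and all vehicle libraries, at 118 to 172 FPKM, lay above all others. The make-up of the sum differed as well. Lpin1 made up 34.3 ± 4.19% with the combination, 32.2 ± 3.26% with DEHP, 23.8 ± 4.16% with ethanol and 49.6 ± 4.62% with vehicle. The vehicle shares, 43.4% to 54.9%, did not overlap those of any treatment. The share of Lpin2 was 62.7% with the combination, 65.1% with DEHP, 70.9% with ethanol and 49.0% with vehicle.

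**Figure D3:**
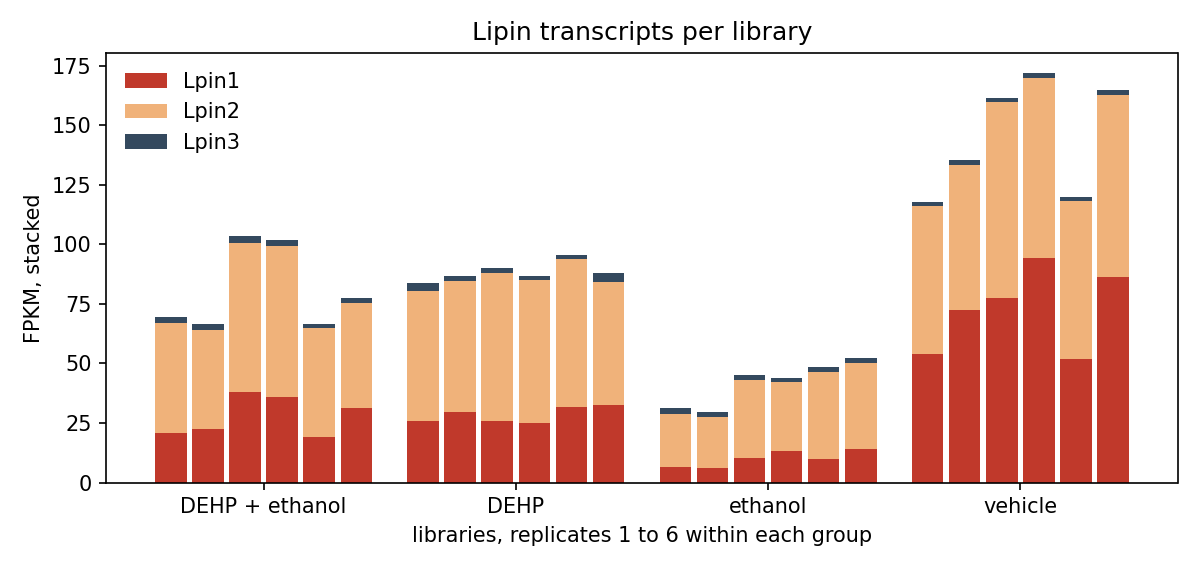
Stacked FPKM of Lpin1, Lpin2 and Lpin3 (y axis) in each of 24 libraries, replicates 1 to 6 within each group (x axis). The ethanol bars reach 29.7 to 52.1 FPKM, below those of all other groups, and the Lpin1 part is the larger share of the bar in some vehicle libraries.

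The DGATs, which add the last fatty acid, moved in different directions. Dgat2 (gene 67800, chromosome 7, 99153663 to 99182713), the DGAT tied to newly made fatty acids, was the most abundant member in every group. Its lowest, median and highest levels were 215, 229 and 249 FPKM with the combination and 204, 238 and 248 FPKM with DEHP. They were 326, 342 and 367 FPKM with ethanol and 233, 263 and 288 FPKM with vehicle. Ethanol stood above all other groups with no overlap, and both DEHP-containing groups overlapped vehicle. Ethanol raised Dgat2 by 0.44 ± 0.07 against vehicle (adjusted p = 1.11e-04). Against ethanol, the combination was lower by a change of -0.65 ± 0.07 (adjusted p = 2.15e-07) and DEHP by one of -0.65 ± 0.07 (adjusted p = 2.94e-07). The falls against vehicle were smaller, -0.21 ± 0.07 for the combination (adjusted p = 0.0261) and -0.20 ± 0.07 for DEHP (adjusted p = 0.0392). The DEHP call was lost on leaving out vehicle library 2, 4, 5 or 6 or DEHP library 3, 4 or 6, and the combination call on leaving out vehicle library 2 or 5. The interaction was -0.45 ± 0.10 (adjusted p = 0.00974).

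Dgat1 (gene 13350, chromosome 15, 76502012 to 76512021), the DGAT also used for fatty acids taken up from outside, was far less abundant. It averaged 15.2 ± 1.43 FPKM with the combination, 14.2 ± 2.38 FPKM with DEHP, 12.7 ± 0.90 FPKM with ethanol and 11.3 ± 1.33 FPKM with vehicle (SD, n = 6 each). The combination libraries, 13.5 to 17.2 FPKM, all lay above the vehicle libraries, 8.94 to 12.7 FPKM, with a change of 0.42 ± 0.11 (adjusted p = 0.00356). DEHP overlapped vehicle and changed Dgat1 by 0.31 ± 0.11 (adjusted p = 0.0381). That call was lost without vehicle library 1, 3 or 6 or DEHP library 1, 2, 4 or 6, and without the 3 libraries with muscle or pancreatic transcripts the change was 0.15 (adjusted p = 0.330). Ethanol against vehicle, 0.23 ± 0.11 (adjusted p = 0.102), the combination against ethanol, 0.18 ± 0.11 (adjusted p = 0.211), DEHP against ethanol, 0.07 ± 0.11 (adjusted p = 0.674), and the interaction, -0.12 ± 0.15 (adjusted p = 0.674), did not pass. Dgat2 made up 93.8% of the summed DGAT level with the combination, 94.2% with DEHP, 96.4% with ethanol and 95.9% with vehicle.

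Mogat1, encoding a monoacylglycerol acyltransferase (gene 68393, chromosome 1, 78511060 to 78606964), was near absent without DEHP and clearly expressed with it. Its lowest, median and highest levels were 13.4, 19.5 and 22.1 FPKM with the combination and 11.7, 17.5 and 20.9 FPKM with DEHP. With ethanol they were 0, 0.31 and 0.85 FPKM and with vehicle 0, 0.13 and 0.61 FPKM. The lowest library given DEHP thus stood far above the highest library without it. Behind these levels were 904 counts over the 6 combination libraries, 820 over the DEHP libraries, 18 over the ethanol libraries and 9 over the vehicle libraries. The 3 libraries at 0 were ethanol library 5 and vehicle libraries 1 and 3, where a count of 0 allows up to 3 counts, or 0.375 to 0.381 FPKM.

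Scaled for library size, the summed counts were 97.4 times higher with the combination than with vehicle (exact 95% interval 51.1 to 214) and 90.6 times higher with DEHP (47.5 to 199). For ethanol the ratio to vehicle was 1.94 (0.828 to 4.90). These intervals cover counting error only. Vehicle library 5 held 5 of the 9 vehicle counts. Without it the fitted change given next was 7.29 for the combination, 7.17 for DEHP and 1.78 for ethanol, the last not passing (adjusted p = 0.0624). The fitted change was 6.49 ± 0.37 for the combination (adjusted p = 2.12e-12) and 6.37 ± 0.38 for DEHP (adjusted p = 3.70e-12), the 3rd and 2nd highest of all genes tested in their comparisons. These ranks are within a set of genes that Mogat1 entered only through the groups given DEHP. Ethanol against vehicle, 0.97 ± 0.68, did not pass (adjusted p = 0.256). The combination differed from DEHP by 0.12 ± 0.21, with a 95% interval of -0.32 to 0.56 (adjusted p = 0.874). The interaction was -0.85 ± 0.71 (adjusted p = 0.465), and the low counts of the groups without DEHP leave it a 95% interval of -2.37 to 0.56.

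Adipocyte transcripts also differed between these groups. Summed over 5 markers (Adipoq, Lep, Plin1, Cfd and Retn), they had a median of 1.34 FPKM (0.69 to 62.8) with the combination, 6.92 FPKM (2.79 to 30.9) with DEHP, 0.085 FPKM (0 to 0.58) with ethanol and 0.51 FPKM (0 to 22.9) with vehicle. Most of each sum was Cfd. Adipoq was at 0 in 19 of 24 libraries, Lep in 22, Plin1 in 20 and Retn in 19. The highest sums were in combination library 6, DEHP library 6 and vehicle library 1, where Mogat1 stood at 13.4, 18.5 and 0 FPKM. In the remaining libraries of the DEHP-containing groups Mogat1 was 11.7 to 22.1 FPKM. The part of these transcripts, and of the lower hepatocyte marker sum, in the members' changes was not tested.

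**Figure D4:**
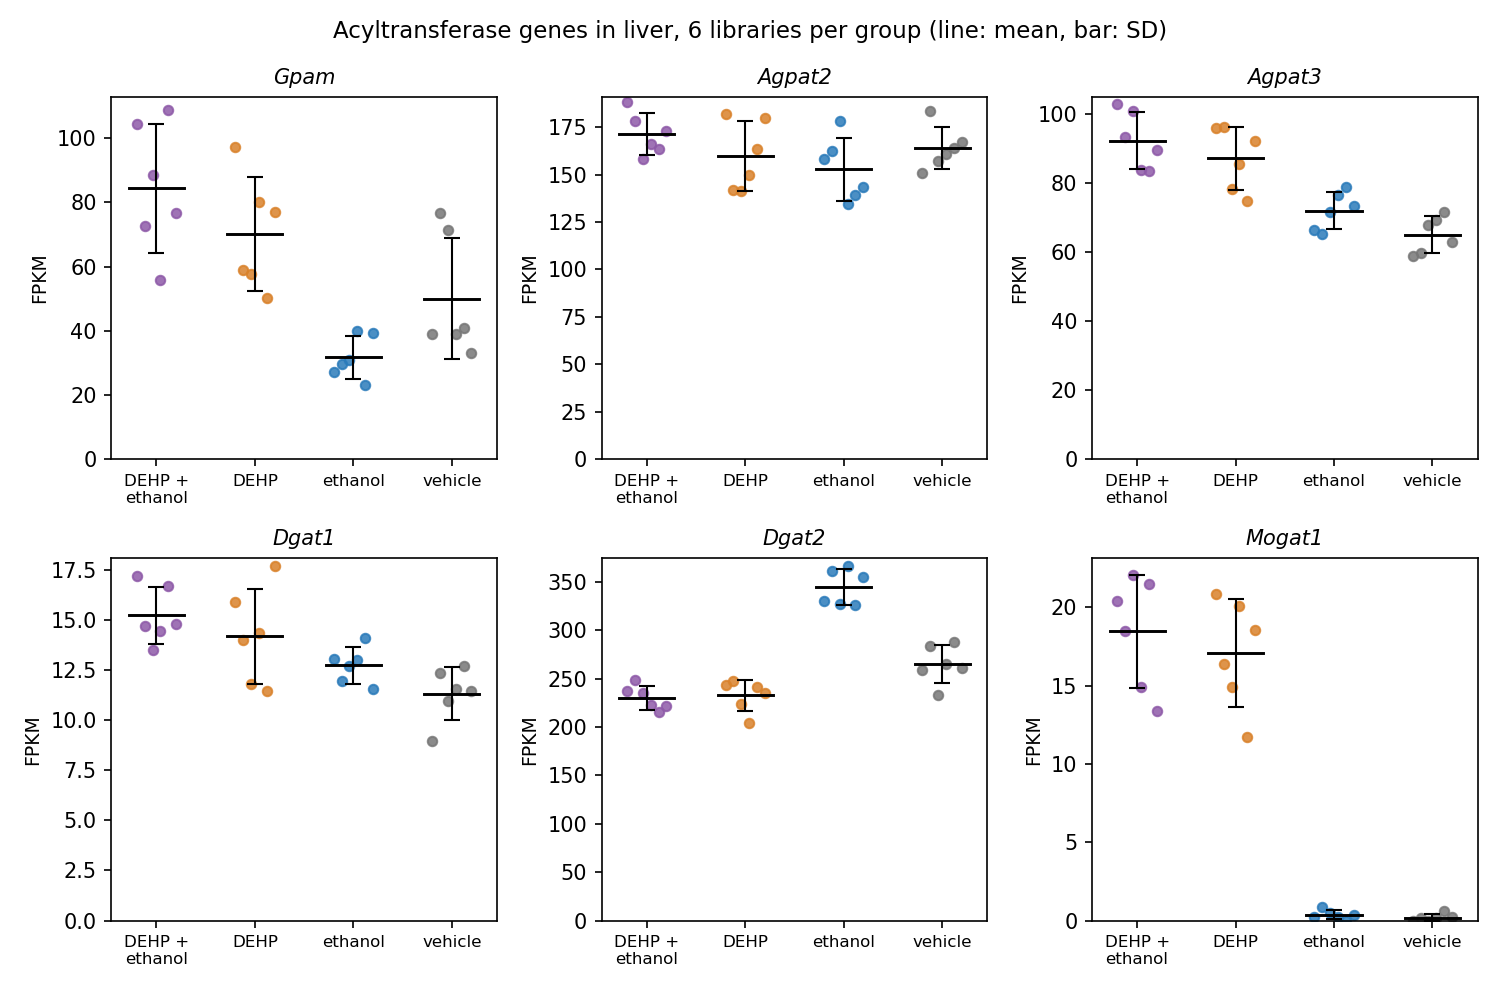
Levels of the 6 acyltransferase members in FPKM (y axes, from 0) in 6 libraries of each group (x axis), with each point a library, the line the mean and the bar 1 SD. Mogat1 lies at 11.7 FPKM or above in all libraries given DEHP and at 0.85 FPKM or below in the others, and Dgat2 is highest with ethanol.

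Set against all genes, the number of members called was as follows. Ethanol raised 1 and lowered 3 of the 9 members against vehicle, while 14.2% of all genes tested were called higher and 14.5% lower. DEHP raised 3 and lowered 2 (all genes: 14.4% higher, 11.6% lower). The combination raised 4 and lowered 3 (19.3% and 17.4%). Against ethanol, the combination raised 5 and lowered 1 (15.1% and 12.7%), and DEHP raised 4 and lowered 1 (13.7% and 12%). The interaction was positive for 2 members and negative for 1 (3.32% and 3.09%). Mogat1 is counted among the rises with DEHP although it could enter the test only through them.

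No member was called between the combination and DEHP. Over all genes that comparison called 0.0467% higher and 0.0748% lower, which is 13 genes, against 44 with DESeq2 and 1159 at an unadjusted p below 0.05. The largest member difference was 0.28 ± 0.20 in Gpam (adjusted p = 0.623). Members' median change was 0.13 with ethanol, 0.26 with DEHP and 0.27 with the combination, beside -0.01, -0.02 and -0.01 over all genes tested.

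Further genes of the pathway were counted beside the same shares over all genes tested, which were 19.3% called higher and 17.4% lower with the combination, 14.4% and 11.6% with DEHP, and 14.2% and 14.5% with ethanol. Of 12 genes for acyl-CoA, glycerol phosphate and glycerol, 9 were tested, and the combination raised 6 and lowered 1, DEHP raised 3 and lowered 0, and ethanol raised 3 and lowered 2. With DEHP the total of 3 calls was near the share over all genes when higher and lower calls are added. Their median change was 0.32 with the combination, 0.26 with DEHP and -0.18 with ethanol, beside -0.01, -0.02 and -0.01 over all genes. Acsl1 and Acsl5, which activate long-chain fatty acids, rose with the combination (0.60 ± 0.11 and 0.84 ± 0.12) and with DEHP (0.57 ± 0.11 and 0.65 ± 0.12). Acsl4, which prefers arachidonate, fell with ethanol to 7.37 ± 0.51 FPKM, against 13.8 ± 2.85 FPKM with vehicle (-0.83 ± 0.11, adjusted p = 1.06e-05). Its interaction was positive, 0.58 ± 0.16 (adjusted p = 0.0240). Aqp9, the hepatocyte glycerol channel, rose with DEHP (0.27 ± 0.08) and with ethanol (0.38 ± 0.08). In the interaction 2 of the 9 were called higher and 1 lower, beside 3.32% and 3.09% over all genes tested. Besides Acsl4, Gpd2 was higher (0.72 ± 0.19, adjusted p = 0.0228), and Aqp9 was lower (-0.44 ± 0.12, adjusted p = 0.0273).

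Among the other enzymes of glycerolipid assembly, 9 of 14 listed genes were tested. Of these the combination raised 3, DEHP raised 3 and ethanol raised 1, and none fell. In total these calls were no more frequent than over all genes with the combination and with ethanol. The list's median change was 0.14 with the combination, 0.15 with DEHP and -0.08 with ethanol. Agpat9, now called Gpat3 and a microsomal glycerol-phosphate acyltransferase, averaged 4.10 ± 0.46 FPKM with the combination, 3.85 ± 0.78 FPKM with DEHP and 0.92 ± 0.29 FPKM with vehicle. Against vehicle it changed by 2.14 ± 0.21 with the combination (adjusted p = 1.78e-08) and 2.04 ± 0.21 with DEHP (adjusted p = 6.25e-08). Lclat1, an acyltransferase of cardiolipin and phosphatidylinositol remodelling, rose by 0.55 ± 0.09 with the combination and 0.63 ± 0.09 with DEHP. Bscl2, or seipin, which acts where lipid droplets form, rose by 0.66 ± 0.11 with the combination, 0.54 ± 0.11 with DEHP and 0.38 ± 0.11 with ethanol.

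Phosphatidate and diacylglycerol also feed phospholipid synthesis. Of 21 tested genes of those branches, the combination raised 9 and lowered 0, DEHP raised 6 and lowered 0, and ethanol raised 6 and lowered 2. With DEHP the total of 6 was near the share over all genes when higher and lower calls are added. The list's median change was 0.13 with the combination, 0.09 with DEHP and 0.06 with ethanol. Chpt1, which makes phosphatidylcholine from diacylglycerol, averaged 183 ± 13.9 FPKM with the combination, 170 ± 26.3 FPKM with DEHP and 89.0 ± 15.5 FPKM with vehicle. It rose by 0.96 ± 0.11 with the combination (adjusted p = 2.17e-07) and 0.83 ± 0.11 with DEHP (adjusted p = 2.56e-06). Both falls with ethanol were in Chka, a choline kinase (-1.23 ± 0.18, adjusted p = 3.74e-05), and Plpp1, a broad lipid phosphate phosphatase. Plpp1 averaged 3.57 ± 0.59 FPKM with ethanol and 9.34 ± 4.29 FPKM with vehicle (-1.31 ± 0.23, adjusted p = 2.19e-04). Its relative Plpp2 went the other way, with 21.2 ± 2.43 FPKM with ethanol and 11.9 ± 1.91 FPKM with vehicle (0.90 ± 0.14, adjusted p = 6.48e-05). The interaction was 1.404 ± 0.32 for Plpp1 (adjusted p = 0.00903) and -0.95 ± 0.20 for Plpp2 (adjusted p = 0.00532).

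Of 9 tested genes of the phosphatase that activates lipins and of lipin 1's transcriptional partners, the combination raised 1 and lowered 2, DEHP raised 1 and lowered 1, and ethanol raised 1 and lowered 2. These totals were near or below the shares over all genes. The list's median change was -0.13 with the combination, -0.02 with DEHP and 0.03 with ethanol. With ethanol the falls were in Cnep1r1, a subunit of the lipin phosphatase (-0.50 ± 0.12, adjusted p = 0.00362), and Ppargc1a, which encodes PGC-1α (-1.04 ± 0.19, adjusted p = 4.10e-04). Srebf1, a lipogenic transcription factor, rose with ethanol by 0.86 ± 0.20 (adjusted p = 0.00299). Pparg, the receptor PPARγ, rose with DEHP by 0.72 ± 0.15 (adjusted p = 0.00107) and with the combination by 0.53 ± 0.15 (adjusted p = 0.00876). None of the 9 passed in the interaction, where 3.32% of all genes tested were called higher and 3.09% lower.

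Liver genes known to respond to fasting and glucocorticoids, a list chosen for its overlap with what is known of Lpin1, were mostly lower in all treatments. Of its 12 tested genes, the combination lowered 8 and raised 0, DEHP lowered 7 and raised 0, and ethanol lowered 10 and raised 1. The gene raised by ethanol was Sds, which averaged 257 ± 33.2 FPKM with ethanol and 182 ± 41.7 FPKM with vehicle. The list's median change was -0.78 with the combination, -0.83 with DEHP and -1.02 with ethanol. In the interaction, 7 of the 12 were called higher and 0 lower, beside 3.32% higher and 3.09% lower over all genes tested. G6pc, glucose-6-phosphatase, changed by -1.26 ± 0.19 with the combination, -1.03 ± 0.19 with DEHP and -1.70 ± 0.20 with ethanol, and its interaction was 1.47 ± 0.27 (adjusted p = 0.00190). Tat, tyrosine aminotransferase, changed by -1.01 ± 0.13 with ethanol, and its interaction was 0.92 ± 0.18 (adjusted p = 0.00411). Not all of the list was lowest with ethanol. Per1 averaged 1.02 ± 0.25 FPKM with the combination and 1.76 ± 0.65 FPKM with DEHP. With ethanol it averaged 2.92 ± 1.59 FPKM and with vehicle 5.50 ± 1.32 FPKM. The combination changed Per1 by -1.58 ± 0.33 against ethanol (adjusted p = 7.13e-04). Mean Sgk1 was also lower with DEHP than with ethanol. Against ethanol, the combination raised 3 and lowered 2 of the 12, and DEHP raised 7 and lowered 1.

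Lipid storage and peroxisome proliferator genes were set beside Mogat1. Of 13 tested, the combination raised 11 and lowered 2, DEHP raised 8 and lowered 2, and ethanol raised 1 and lowered 4. Cidea is counted among the rises with the combination. It averaged 0.043 FPKM with ethanol and 0.155 FPKM with vehicle, so, like Mogat1, it could enter the test only through the groups given DEHP. The list's median change was 1.42 with the combination, 1.73 with DEHP and -0.48 with ethanol. With DEHP the smallest p-values were those of Ehhadh, the peroxisomal bifunctional enzyme (4.63 ± 0.24, adjusted p = 4.15e-13), Vnn1, vanin 1 (2.69 ± 0.22, adjusted p = 2.26e-09), and Cd36, a fatty acid transporter (2.90 ± 0.24, adjusted p = 2.85e-09). The lipid droplet genes Plin2, Plin4 and Plin5 fell with ethanol, with changes of -0.48 ± 0.10, -2.30 ± 0.50 and -0.62 ± 0.14. The lower levels of Plin4 and Plin5 were not particular to ethanol. Plin4 averaged 1.02 ± 1.51 FPKM with the combination, 0.79 ± 0.11 FPKM with DEHP and 4.64 ± 2.68 FPKM with vehicle. Plin5 averaged 33.1 ± 2.12, 31.6 ± 5.22 and 43.8 ± 12.1 FPKM in the same order, and Plin2 372 ± 36.9, 293 ± 37.4 and 286 ± 30.8 FPKM. The interactions of Plin2, Plin4 and Plin5 were 0.84 ± 0.14, 2.67 ± 0.74 and 0.70 ± 0.19 (adjusted p = 6.49e-04, 0.0286 and 0.0312).

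Genes with levels most like those of Lpin1 and Mogat1 were found by Pearson correlation of log2 CPM over the 24 libraries, given as a description, since the libraries share their groups. Nearest to Lpin1 were Lpin2 (r = 0.92), Tsc22d3, which encodes the glucocorticoid-induced protein GILZ (0.92), Trp53inp1 (0.91), AA986860 (0.88) and Lonrf3 (0.87). AA986860 and Lonrf3 were near the filter of 1 FPKM, averaging 0.34 and 0.61 FPKM with ethanol and 1.71 and 1.75 FPKM with vehicle. No ethanol library reached the filter for either gene. Tsc22d3 averaged 35.6 ± 4.75 FPKM with the combination, 50.2 ± 10.2 FPKM with DEHP, 25.4 ± 14.3 FPKM with ethanol and 112 ± 22.4 FPKM with vehicle. With group means taken out, the correlation of Lpin1 with Lpin2 was 0.73 over the 24 libraries. Nearest to Mogat1 were Hsd17b11, a lipid droplet dehydrogenase, Ehhadh, the fatty acid hydroxylase gene Cyp4a10, the peroxisomal thiolase gene Acaa1b and Vwa8, all with r = 0.98. Hsd17b11 averaged 616 ± 65.1 FPKM with the combination, 589 ± 52.1 FPKM with DEHP, 97.6 ± 2.97 FPKM with ethanol and 97.4 ± 17.3 FPKM with vehicle. Unlike Mogat1, all 5 were present at 30.6 FPKM or more on average without DEHP.

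**Figure D5:**
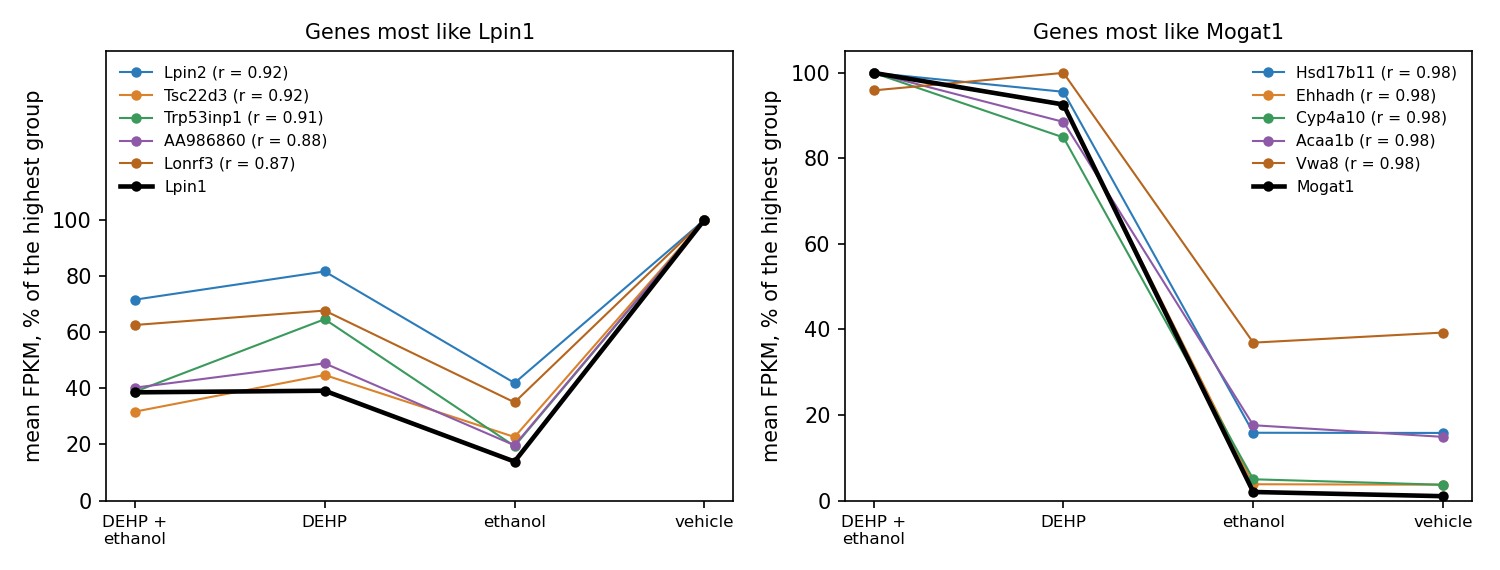
Mean FPKM of each group as a percentage of the gene's highest group (y axis) for Lpin1 (left) and Mogat1 (right), in black, and the 5 genes with the highest correlation with each over 24 libraries, in colour, by group (x axis). In the left panel all genes are highest with vehicle and lowest with ethanol, and in the right panel all are low in the groups without DEHP.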

How the data were processed

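RNA of mouse livers was sequenced in 24 libraries, 6 for each of 4 groups, which were assigned from the sample titles. The authors deposited, for every library, a table with an NCBI gene identifier, a symbol, a transcript length, an expected count and an FPKM value per gene above 0. The deposited expected counts are estimated reads per gene with no normalisation, per the file headers, and 94.5% to 95.3% of them were whole numbers. The deposited FPKM values are scaled to transcript length and library size, per the file headers, and were 1.02 to 1.30 times the value computed from count, length and total in most genes. Cuffdiff and the builds mm10 and GRCm38 are listed in the submitters' processing notes, without saying what each was used for. The aligner, counting program, strand setting and handling of shared reads and isoforms were not given in the sources used here.

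Rounded expected counts entered 1 edgeR fit of all 4 groups (edgeR 4.0.16 under R 4.3.3, TMM factors, 20 residual degrees of freedom), followed by the quasi-likelihood F test and Benjamini-Hochberg adjustment over 10697 genes. The plan left limma on log2(FPKM + 1) as the test if the tables held no counts; they held counts, so limma 3.58.1 and DESeq2 1.42.0 served as alternatives. Each SE is the unshrunken change over the square root of its F statistic. The depth of 7324793 to 8016662 counts per library leaves few counts for Mogat1 in the groups without DEHP. Replicate numbers did not pair the libraries, since the correlations of same-numbered libraries were -0.215 to 0.211, and replicates of a group differed by more than sampling noise, so each was counted once. Coordinates and promoters are RefSeq's, on GRCm38.p6, with 17491 of 17537 identifiers matched by gene ID and 46 not.

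The members, the lists of further genes, the tests and the alternatives were chosen with earlier results of these data known. All 9 members are described, and of each list at most 3 called genes with the smallest adjusted p per comparison. Sds is named besides, since it moved against the rest of its list with ethanol. The genes nearest to Lpin1 and Mogat1 are the 5 with the highest Pearson correlation of log2 CPM. Alternatives were other scalings (DESeq2-style size factors, none), DESeq2, no filter, limma on log2(FPKM + 1), log2(FPKM + 0.1) and log2(TPM + 1), a fit of the compared groups alone, a replicate block, each library left out in turn, the 3 libraries with muscle or pancreatic transcripts left out together, and, chosen after seeing the data, removal of the trend of change on gene length.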

Additional observations from a re-analysis of the deposited data

Results flagged for a closer look

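The change of the combination against DEHP differed from the change of ethanol against vehicle in 3 members, by edgeR's test of the interaction. The difference was 2.78 for Lpin1 (adjusted p = 1.74e-06), 1.02 for Lpin2 (adjusted p = 0.00198) and -0.45 for Dgat2 (adjusted p = 0.00974). Behind them, ethanol given with DEHP moved Lpin1 by -0.01, Lpin2 by -0.17 and Dgat2 by -0.00 against DEHP, none of which passed, while ethanol alone moved them by -2.79, -1.19 and 0.44 against vehicle.

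Lpin3 in ethanol library 1, at 2.67 FPKM, stood apart from the other 5 ethanol libraries, which lay between 1.76 and 2.05 FPKM. Its gap to the nearest of them was 0.681 of the group's range, above the 95% critical value of Dixon's test for 6 samples. Chance marks about 1 group in 20 in this way, and 36 groups were examined.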

How the results depend on the processing

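Of the 63 results for the 9 members in 7 contrasts, 30 were called, and 25 of those kept direction and call under every alternative run. Over 2196 alternative values, 2103 kept direction and side of the threshold, 31 lost the call, 19 gained one and 43 changed sign, of which 0 were called before or after. The changes of Lpin1 and Mogat1 called in the report kept their calls throughout. With each library left out in turn, Lpin1 changed by -2.91 to -2.67 with ethanol, and Mogat1 by 6.11 to 7.17 with DEHP and 6.22 to 7.29 with the combination. Calls lost on leaving libraries out, and that of Lpin2, are given in the report. With the groups compared fitted alone, Dgat2 with DEHP was -0.22 (adjusted p = 0.0822) and Dgat1 with DEHP 0.29 (adjusted p = 0.114). Dgat1 with DEHP was also lost with no filter (0.29, adjusted p = 0.0750) and with the length trend removed (0.24, adjusted p = 0.0924), and Gpam with ethanol with the length trend removed (-0.43, adjusted p = 0.126). Calls gained included Agpat3 with ethanol in DESeq2 (adjusted p = 0.0422) and Gpam with DEHP once the trend on gene length was removed (0.61, adjusted p = 0.0320). Lpin2 with DEHP was called with the compared groups alone (-0.33, adjusted p = 0.0220). Agpat3, DEHP against ethanol, was called without TMM factors (0.28, adjusted p = 0.00774). It was also called with limma on log2(FPKM + 1), log2(FPKM + 0.1) and log2(TPM + 1) (adjusted p = 0.00928, 0.00939 and 0.00210). Agpat2 with ethanol was called on log2(TPM + 1), at -0.21 (adjusted p = 0.0350).

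The replicate numbers do not pair the libraries. With a replicate block, Gpam with ethanol was -0.57 (adjusted p = 0.0572) and Dgat1 with DEHP was 0.30 (adjusted p = 0.0611), and the genes called between the combination and DEHP numbered 5.

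That count, 13 in the report, was 44 with DESeq2, 1 with no filter, 7 with limma on log2(FPKM + 1), 6 on log2(FPKM + 0.1), 6 with the compared groups alone, 2 with the length trend removed, 8 without the 3 libraries with muscle or pancreatic transcripts, and 0 to 18 with each library left out in turn. Genes called in the interaction were 686, and 365 without those 3 libraries. Members called with DEHP were 5 and ranged from 3 to 5 with each library left out, the 3 being without vehicle library 6 or DEHP library 4 or 6.

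Signs changed in small, uncalled values. On log2(TPM + 1), where the median of all genes shifted by -0.15 with ethanol against vehicle, Lpin3 was -0.023 with ethanol, -0.0035 between the combination and DEHP and 0.0195 in the interaction, and Dgat1 was 0.0049 in the interaction. Agpat2, DEHP against ethanol, was 0.070 without TMM, 0.062 with limma on log2(FPKM + 1), 0.063 on log2(FPKM + 0.1) and 0.16 on log2(TPM + 1). Removing the length trend gave -0.076 for Agpat2 with the combination and 0.049 for Lpin1 between the combination and DEHP. Without those 3 libraries, the combination against DEHP was 0.0054 for Lpin1 and 0.013 for Dgat2, DEHP against ethanol was -0.0071 for Lpin3 and -0.0024 for Dgat1, and the interaction was 0.025 for Lpin3 and 0.044 for Dgat1. With each library left out in turn, Agpat2 with ethanol ranged from -0.093 to 0.0106. Between the combination and DEHP, Lpin1 ranged from -0.12 to 0.069, Lpin3 from -0.080 to 0.14 and Dgat2 from -0.063 to 0.023. Between DEHP and ethanol, Agpat2 ranged from -0.072 to 0.033, Lpin3 from -0.0105 to 0.22 and Dgat1 from -0.0056 to 0.13. The interaction of Lpin3 ranged from -0.22 to 0.0079. The cause of these shifts was not tested.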

Other observations

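Within the vehicle group, Gpam stood at 76.8 and 71.3 FPKM in libraries 2 and 3 and at 33.2 to 41.0 FPKM in the other 4. Lpin1 stood at 53.8 and 52.0 FPKM in libraries 1 and 5 and at 72.4 to 94.2 FPKM in the other 4. The highest Lpin1 levels, 94.2 and 86.2 FPKM, were in libraries 4 and 6, where Gpam was 39.0 and 33.2 FPKM. With group means taken out, the correlation of Gpam with Lpin1 was -0.03 over the 24 libraries. In the combination group, Lpin1 was 31.3 to 37.8 FPKM in libraries 3, 4 and 6 and 19.3 to 22.6 FPKM in libraries 1, 2 and 5. Lpin2 was 62.6 and 63.1 FPKM in libraries 3 and 4 of that group and 41.4 to 46.0 FPKM in the other 4. The labels give no feature that separates these libraries.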
